A study of Mus musculus with 6 samples.

Results

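The imprinted Dlk1-Meg3 domain of mouse chromosome 12 was examined in epiblast-like cells (EpiLCs), which are a culture model of the early post-implantation epiblast. Its members were the 6 genes Dlk1, Meg3, Rtl1, Rian, Mirg and Dio3, taken by gene name from the 55416 genes of the count table. All 6 had a row in the table, and 4 of them passed the filter on low counts together with 15746 genes in all. Rtl1 and Dio3 did not pass and are given by their counts alone. The 3 wild-type (WT) libraries came from 46C mouse embryonic stem cells, a line in which the neural gene Sox1 drives green fluorescent protein. The 3 Oct6 KO libraries came from a single clone of that line, in which CRISPR/Cas9 left a homozygous insertion of an adenine in the Oct6 (Pou3f1) coding sequence and shifted its reading frame. Both were kept in 2i and LIF and then differentiated for 48 h on fibronectin in N2B27 medium with 1% KSR, bFGF and Activin A, for whose concentrations the sources give different units. Because the KO cells are a single clone, the absence of Oct6 and any other property of that clone cannot be told apart. Pou3f1 had 2156, 1563 and 1805 counts in the WT libraries against 1567, 1825 and 1708 in the KO libraries, and since the insertion need not remove the messenger RNA these counts do not check the labels.

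Imprinted genes are expressed mainly from the copy inherited from the mother or mainly from the copy inherited from the father. In this domain the paternal chromosome is known to express the protein-coding genes Dlk1, Rtl1 and Dio3, and the maternal chromosome a series of long noncoding RNAs that run in the same direction from Meg3 through Rian to Mirg. Many microRNAs (miRNAs) and C/D small nucleolar RNAs (snoRNAs) are encoded along this stretch. A control region between Dlk1 and Meg3 carries DNA methylation on the paternal copy, and in cultured pluripotent stem cells the maternal RNAs are known to be lost when the maternal copy becomes methylated too. The counts carry no information on which parental copy a read came from, so "maternal" and "paternal" below name the known origin of each gene and not a measurement.

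On GRCm39 the members spread over 829 kb of chromosome 12. Dlk1 lay at 109418749 to 109429262 on the plus strand. Meg3 followed at 109506877 to 109538165, starting 77.6 kb after the end of Dlk1. Rtl1 lay at 109555627 to 109582007 on the minus strand. Rian lay at 109570242 to 109628150 on the plus strand and overlapped Rtl1 over 11.8 kb. Mirg lay at 109696198 to 109715898 and Dio3 at 110245502 to 110247531, both on the plus strand, with 530 kb between them.

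The promoter of Meg3 is shown because the most 5′ of the maternal RNAs starts there. The window runs from 250 bases before to 50 bases after the start in RefSeq, and its letters were found unchanged on GRCm39 at chr12:109506629-109506928, plus strand. The capitals mark, from 5′ to 3′, a ZFP57 hexamer on the minus strand, a cyclic AMP response element and a TATA box.
Meg3 promoter: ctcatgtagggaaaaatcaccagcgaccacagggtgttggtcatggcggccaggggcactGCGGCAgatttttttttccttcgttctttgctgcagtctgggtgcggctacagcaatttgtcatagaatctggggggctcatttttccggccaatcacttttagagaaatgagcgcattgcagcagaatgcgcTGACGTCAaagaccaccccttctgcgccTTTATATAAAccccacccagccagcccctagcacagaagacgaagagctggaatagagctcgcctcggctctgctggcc
Both strands were searched for 4 motifs. The response element TGACGTCA began at position −57 from the RefSeq start and is held by 1.79% of the 32841 promoter windows of the same length. The TATA box TATAAA was found on both strands as overlapping matches, the first at −29, and 13.6% of the windows hold it. The hexamer TGCCGC, which ZFP57 binds when methylated, was found at −190, and 11.6% of the windows hold it. The octamer ATGCAAAT, the classical letters of POU factors such as OCT6, was not in this window and is held by 1.74% of the windows. The Meg3 window held 13 CpG dinucleotides, against a median of 7 over the windows.

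Mature miRNAs from the 6 plus-strand hairpins that lie within the coding sequence of Rtl1 are shown because each is an exact complement of the Rtl1 messenger RNA, which runs the other way. Such miRNAs are known to direct the cleavage of Rtl1 RNA. The mature sequences come from RefSeq and are printed 5′ to 3′ with the seed, bases 2 to 8, in capitals.
miR-432: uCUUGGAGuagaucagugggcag
miR-433-3p: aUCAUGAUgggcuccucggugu
miR-127-3p: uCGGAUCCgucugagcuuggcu
miR-434-3p: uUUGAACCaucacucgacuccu
miR-136-5p: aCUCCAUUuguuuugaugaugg
miR-431-5p: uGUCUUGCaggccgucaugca
The facing sites in Rtl1 RNA are given for miR-432, whose hairpin had the most counts, and for miR-127-3p, with the bases that face the seed in capitals.
Rtl1 site of miR-432: ctgcccactgatctaCTCCAAGa
Rtl1 site of miR-127-3p: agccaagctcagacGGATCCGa
The site of miR-432 lies at chr12:109561440-109561462 and that of miR-127-3p at chr12:109559322-109559343, both on the minus strand of GRCm39 and both in the coding sequence of Rtl1. Of the 105 mature miRNAs of the domain, 13 had such an exact site in an Rtl1 transcript. They came from 7 hairpins, and 11 of the sites, from 6 hairpins, were in the coding sequence.

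The seeds of the domain's miRNAs were nearly all different, with 97 seeds among the 105 mature sequences and 8 seeds shared by a pair. The pair below is shown because its hairpins held the most counts after Mir432.
miR-3070-3p: uGGUGCUAccgucagggguaga
miR-3070-2-3p: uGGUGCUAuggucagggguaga
Of the 59 miRNA genes on the plus strand between the start of Meg3 and the end of Mirg, 57 were matched to RefSeq by name.

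The 3 maternal long RNAs were lower in KO EpiLCs than in WT EpiLCs, at 68.1% to 72.2% of their WT levels, and the 3 paternal genes were close to absent in both. Levels are given as counts per 1000000 counts of the library (CPM), with library sizes scaled by the trimmed mean of M-values. The values of single libraries are listed in the order of their replicate numbers. The libraries held 10995505 to 14680930 counts, so that 3 counts correspond to between 0.204 and 0.273 CPM. The test was edgeR's quasi-likelihood test over all genes, with Benjamini-Hochberg adjustment and a gene called at an adjusted p below 0.1. It compared the genotypes without pairing the libraries by replicate number. Of all genes tested, 24.3% were called, 12.5% lower and 11.8% higher in KO EpiLCs, and 6.21% were called while differing by 1 or more on the log2 scale. Every KO library was below every WT library for 17.1% of all genes tested. Of the 4 members tested, 3 were called, all lower, and those 3 had every KO library below every WT library. None of the 4 reached a log2 fold change of 1 in either direction. In bulk RNA, fewer cells expressing a gene and less RNA per cell cannot be told apart.

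Meg3 is the long noncoding RNA after which the maternal series is named, and it starts nearest to the control region. It measured 70.2, 53.0 and 58.6 CPM in the WT libraries against 43.8, 37.1 and 45.7 CPM in the KO libraries. The groups did not overlap, since WT replicate 2 was the lowest of its group and still above KO replicate 3, the highest of the KO group. The mean was 60.6 ± 8.78 CPM in WT and 42.2 ± 4.50 CPM in KO EpiLCs (SD, n = 3), 69.6% of the WT mean. The log2 fold change was −0.52 with an SE of 0.12 and a 95% interval from −0.78 to −0.27 (edgeR, adjusted p = 0.0048).

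Rian, which carries many of the C/D snoRNAs, was the most abundant RNA of the domain by counts. It measured 661, 685 and 665 CPM in the WT libraries against 488, 477 and 405 CPM in the KO libraries. The WT libraries lay close together, all above the KO libraries, and KO replicate 3 was the lowest. The means were 670 ± 12.7 and 457 ± 45.4 CPM (SD, n = 3), and KO EpiLCs held 68.1% of the WT level. The log2 fold change was −0.55 with an SE of 0.098 and a 95% interval from −0.76 to −0.35 (edgeR, adjusted p = 0.00047).

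Mirg, the 3′-most long RNA, carries many of the miRNAs. It measured 131, 122 and 109 CPM in the WT libraries against 94.1, 87.9 and 79.0 CPM in the KO libraries, again without overlap. The means were 121 ± 11.2 and 87.0 ± 7.58 CPM (SD, n = 3), 72.2% of the WT level in KO EpiLCs. The log2 fold change was −0.47 with an SE of 0.10 and a 95% interval from −0.69 to −0.25 (edgeR, adjusted p = 0.0033). In the 3 pairs of libraries with the same replicate number, each of Meg3, Rian and Mirg was lower in the KO library of all 3 pairs.

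Dlk1, which encodes a transmembrane protein with EGF-like repeats and a non-canonical Notch ligand, was barely detected. It had 11, 9 and 13 counts in the WT libraries against 5, 14 and 14 counts in the KO libraries. The groups overlapped, with KO replicate 1 below and KO replicates 2 and 3 above all WT libraries. The level was 0.841 ± 0.0336 CPM in WT and 0.846 ± 0.382 CPM in KO EpiLCs (SD, n = 3). The log2 fold change was 0.02 with an SE of 0.47 (edgeR, adjusted p = 0.99), and its 95% interval ran from −0.97 to 1.00, so that a change of a size like that of Meg3 was not detectable at this depth.

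Rtl1, a gene derived from a retrotransposon and known for its role in the placenta, had 0, 3 and 5 counts in the WT libraries against 3, 0 and 10 counts in the KO libraries. The 2 libraries at 0 allow up to 0.227 CPM in WT replicate 1 and 0.225 CPM in KO replicate 2, for counting error only. Its highest value was 0.752 CPM, in KO replicate 3. Part of the gene lies opposite Rian, and whether the authors counted by strand is not given in the sources used here, so its few counts are uncertain. Dio3, the deiodinase that inactivates thyroid hormone, had 7, 5 and 4 counts in the WT libraries against 2, 7 and 4 counts in the KO libraries. Its groups overlapped, at 0.416 ± 0.131 and 0.334 ± 0.191 CPM (SD, n = 3). A difference for either gene was not detectable at this depth.

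**Figure D1:**
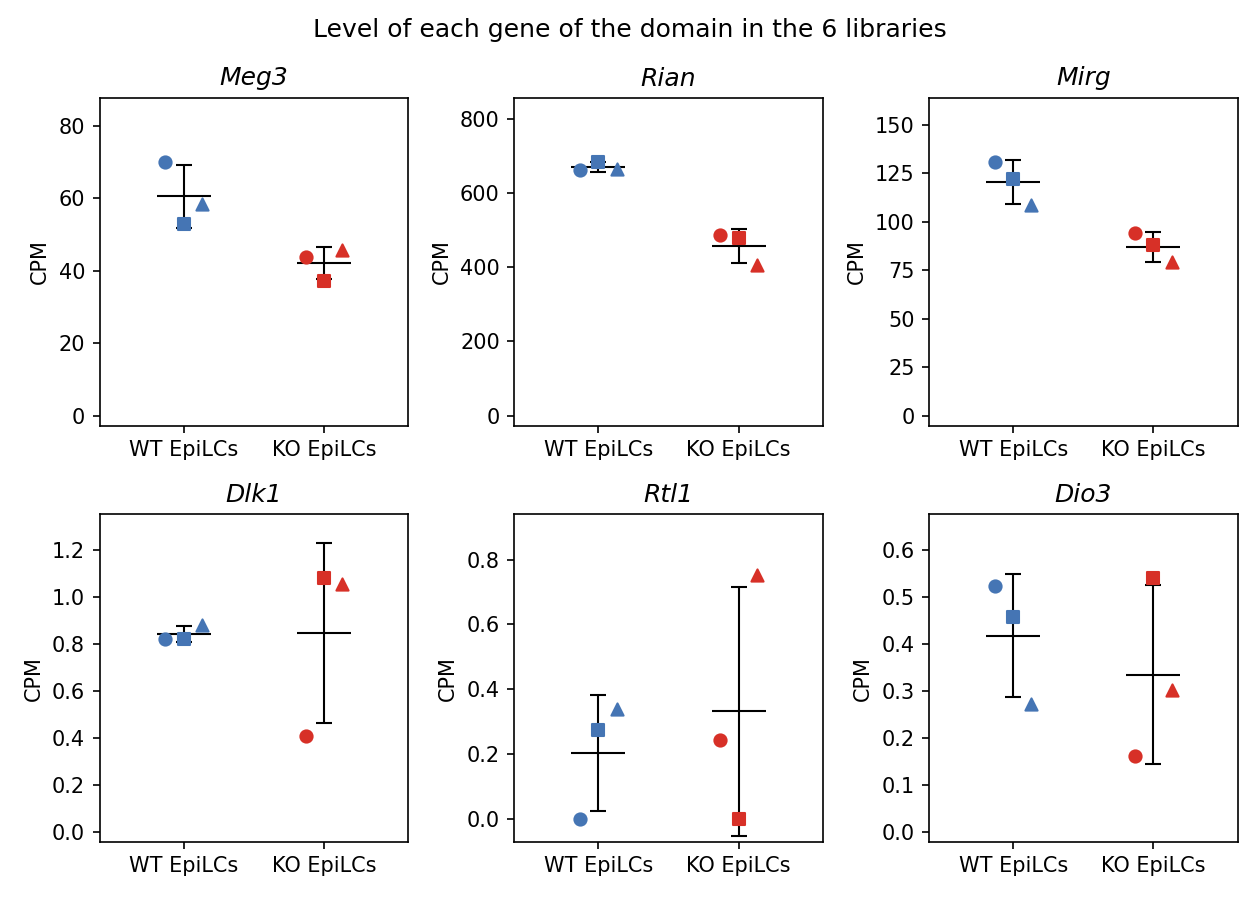
Each panel plots the CPM of a member in the 3 WT (blue) and 3 KO (red) EpiLC libraries, with circles, squares and triangles for replicates 1, 2 and 3 and black lines for the mean and SD (n = 3); the vertical scale differs between panels. Meg3, Rian and Mirg are lower in every KO library than in any WT library, while Dlk1, Rtl1 and Dio3 stay at or below 1.08 CPM and overlap.

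Per length of exon, the order of the members in WT EpiLCs was Rian at 21.0 CPM per kb, Mirg at 12.5, Meg3 at 3.14, Dio3 at 0.205, Dlk1 at 0.139 and Rtl1 at 0.0300 CPM per kb. In KO EpiLCs the same scale gave 14.3 for Rian, 2.19 for Meg3 with Mirg between them, 0.165 for Dio3, 0.140 for Dlk1 and 0.0487 CPM per kb for Rtl1. The 3 maternal RNAs did not overlap with each other or with the paternal genes in either group, while the order among the 3 paternal genes rested on 8 to 33 counts per group. Exon lengths were taken from GENCODE M39 as the union of all exons, which may not be the authors' gene models, so these levels are approximate.

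The composition of the maternal RNAs was compared by ratios of counts within each library. There were 9.41, 12.9 and 11.4 Rian counts for each Meg3 count in WT replicates 1 to 3, and 11.1, 12.9 and 8.86 in KO replicates 1 to 3. The log2 ratio of Rian to Meg3 differed by −0.04 between KO and WT (exact two-sided permutation test, p = 0.7, n = 3 per group). That of Mirg to Meg3 differed by 0.05 (exact two-sided permutation test, p = 0.9, n = 3 per group). With 3 libraries against 3 this test cannot give a p below 0.1. Meg3, Rian and Mirg held between 99.6% and 99.9% of the counts of the 6 members in every library.

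The balance of maternal over paternal members was compared within each library, which needs no scaling between libraries. The log2 ratio of the summed counts, with 1 added to each sum, was 9.25, 9.03 and 9.06 in the WT libraries against 9.46, 8.47 and 7.92 in the KO libraries. KO replicate 1 was above all WT libraries and the other KO libraries were below them. The difference was −0.50 (exact two-sided permutation test, p = 0.4, n = 3 per group). It was −0.15 without KO replicate 3 and −0.92 without KO replicate 1. The ratio of Meg3 to Dlk1 differed by −0.42 (exact two-sided permutation test, p = 0.5, n = 3 per group). The paternal sum was only 10 to 28 counts per library.

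The 2 other long RNAs tested on the plus strand between Meg3 and Mirg were lower too. Of 13 long genes annotated on that strand in this stretch of 209 kb, 5 were tested. Besides the 3 members these were 2 other genes, and both were called lower. Gm37899, a transcript between Rian and Mirg whose annotation awaits an experiment, measured 30.7, 30.8 and 29.0 CPM in the WT libraries against 21.3, 19.4 and 18.6 CPM in the KO libraries. Its log2 fold change was −0.61 with an SE of 0.12 (edgeR, adjusted p = 0.0017). B830012L14Rik, a long noncoding RNA that overlaps Gm37899 over 1.31 kb, measured 45.2, 39.4 and 37.4 CPM in the WT libraries against 31.0, 30.8 and 30.7 CPM in the KO libraries. Its log2 fold change was −0.40 with an SE of 0.12 (edgeR, adjusted p = 0.019). Thus all 5 long plus-strand genes tested between the start of Meg3 and the end of Mirg were called lower, with log2 fold changes from −0.61 to −0.40. The groups did not overlap for any of the 5. Over all genes tested, 12.5% were called lower, and 17.1% had every KO library below every WT library.

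All 95 plus-strand genes of that stretch together held 982, 971 and 936 CPM in the WT libraries against 711, 685 and 607 CPM in the KO libraries. This was between 0.0943% and 0.0996% of all counts in the WT libraries and between 0.0611% and 0.0704% in the KO libraries. The KO mean was 69.3% of the WT mean. Rian alone made up 66.6% to 71.1% of these counts in the 6 libraries.

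**Figure D2:**
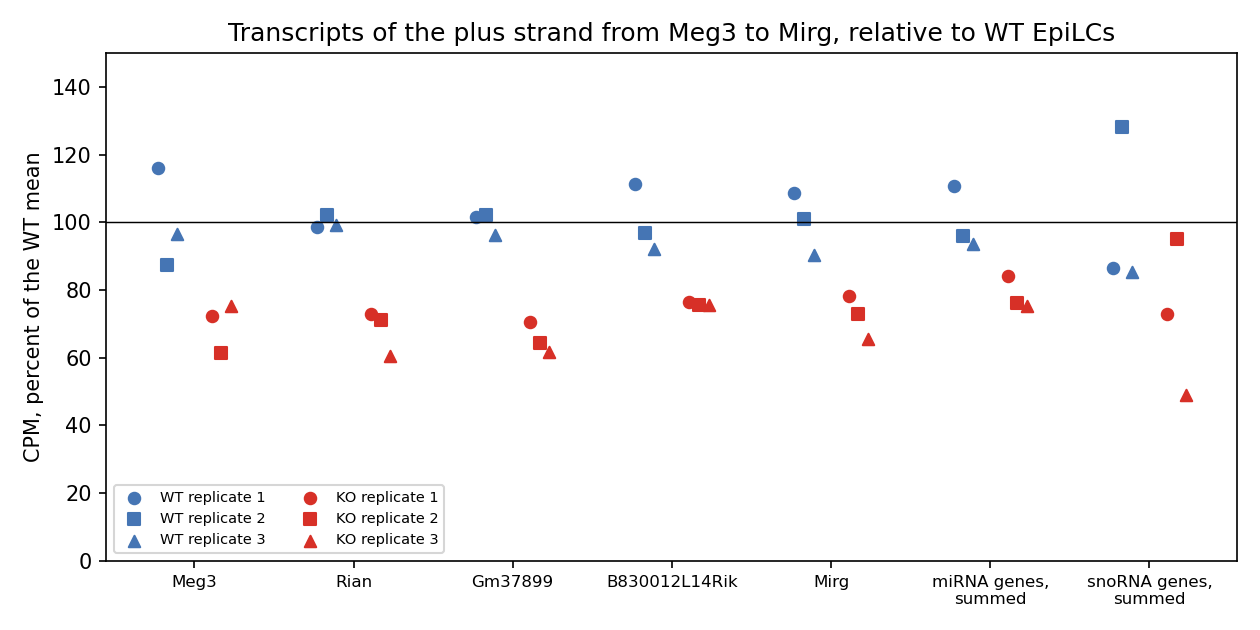
CPM in each library is shown as a percent of the WT mean. The 5 long plus-strand RNAs tested are in their order along the chromosome, followed by the summed miRNA and snoRNA genes between Meg3 and Mirg. Blue is WT, red is KO and the marker shape gives the replicate number. The long RNAs of the KO libraries lie below every WT library, and the summed snoRNA genes overlap between the groups.

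The hairpin and snoRNA genes on the plus strand between the start of Meg3 and the end of Mirg, inside or between the long genes, also had counts. Total RNA libraries of this kind hold fragments of long precursors, so these counts do not measure mature miRNAs or snoRNAs. Of 82 such genes, 59 miRNA and 23 snoRNA, 56 had a count in some library and 17 passed the filter. Of the 17, 16 had a log2 fold change below 0 and 1 was called, with a median of −0.33, against a median of 0.0014 over all genes tested. The summed miRNA genes held 37.1, 32.1 and 31.4 CPM in the WT libraries against 28.2, 25.5 and 25.2 CPM in the KO libraries. All 3 KO sums were below all WT sums, and the KO mean was 78.5% of the WT mean. The summed snoRNA genes held 5.97, 8.85 and 5.88 CPM in the WT libraries against 5.02, 6.56 and 3.38 CPM in the KO libraries, where KO replicate 2 was above WT replicates 1 and 3.

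The only small RNA gene called was the snoRNA gene Gm25856, which lies beyond the end of Rian, within the span of B830012L14Rik. It had 15, 17 and 17 counts in the WT libraries against 7, 10 and 5 counts in the KO libraries, a log2 fold change of −1.13 with an SE of 0.46 (edgeR, adjusted p = 0.095). The call was lost when any of the 6 libraries was left out, with an adjusted p between 0.11 and 0.29. The hairpin genes with the most counts were Mir432 with 149 counts in WT and 127 in KO EpiLCs, Mir3070b with 152 and 105, and Mir3070a with 106 and 73. Their log2 fold changes were −0.21 (SE 0.26), −0.51 (SE 0.29) and −0.49 (SE 0.35), and none was called. The hairpins Mir3070a and Mir3070b are near-identical, so the division of reads between them is uncertain.

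Whether a hairpin had counts differed with its place. Of the 14 miRNA genes that lie in an exon of a long gene on the same strand, 10 were at 0 in every library, and so were all 14 snoRNA genes in that position. Of the 45 miRNA genes elsewhere, 2 were at 0, and all 9 snoRNA genes elsewhere had counts. The 7 hairpins that lie inside Rtl1 exons but on the other strand all had counts, from 18 to 276 over the 6 libraries. Summed, these 7 held 9.93, 8.21 and 7.71 CPM in the WT libraries against 6.40, 7.71 and 6.47 CPM in the KO libraries, with KO replicate 2 at the level of WT replicate 3. The Rtl1 gene opposite them had 8 counts in WT and 13 in KO EpiLCs in all. A hairpin gene that shares its bases with an exon of its host can lose its reads when reads are assigned to genes, so an absence of counts there was not read as an absence of the RNA.

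Outside this stretch, no gene around the domain was called. From 1 Mb before Dlk1 to 1 Mb after Dio3 the annotation had 171 genes, of which 50 were tested. The 6 called genes were Meg3, Rian, Gm37899, B830012L14Rik, Mirg and Gm25856, all lower and all on the plus strand between Meg3 and Mirg. The other 28 genes tested beyond that stretch, Dlk1 included, had log2 fold changes from −0.82 to 0.64, 0 were called by edgeR or by DESeq2, and 1 had an unadjusted p below 0.05 with either tool. With edgeR that gene was Gm6988, a processed pseudogene and the nearest gene tested after Dio3. It measured 14.1, 5.93 and 6.43 CPM in the WT libraries against 4.94, 6.63 and 5.72 CPM in the KO libraries, so that the groups overlapped and WT replicate 1 stood apart. Its KO to WT difference on the log2 scale was −0.62 with an SE of 0.27 (edgeR, adjusted p = 0.14). It was called without a filter on low counts (edgeR, adjusted p = 0.038), without WT replicate 2 (edgeR, adjusted p = 0.044) and without WT replicate 3 (edgeR, adjusted p = 0.068), and also with the replicate number as a block (edgeR, adjusted p = 0.095).

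The next protein-coding neighbours had no called difference. Begain, upstream of Dlk1, measured 0.896, 0.365 and 0.879 CPM in the WT libraries against 1.13, 1.16 and 1.13 CPM in the KO libraries. All KO libraries were above all WT libraries, but the log2 fold change of 0.64 had a SE of 0.45 (edgeR, adjusted p = 0.38). Ppp2r5c, a phosphatase subunit gene after Dio3, had a log2 fold change of 0.11 with an SE of 0.092 (edgeR, adjusted p = 0.46). Of the 18 tested neighbours of a list of 20, 0 were called by edgeR or DESeq2 and 0 had an unadjusted p below 0.05 with edgeR, with a median log2 fold change of 0.04. Over the whole of chromosome 12, 136 of 613 genes tested were called (22.2%, against 24.3% of all genes tested), 94 higher and 42 lower.

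**Figure D3:**
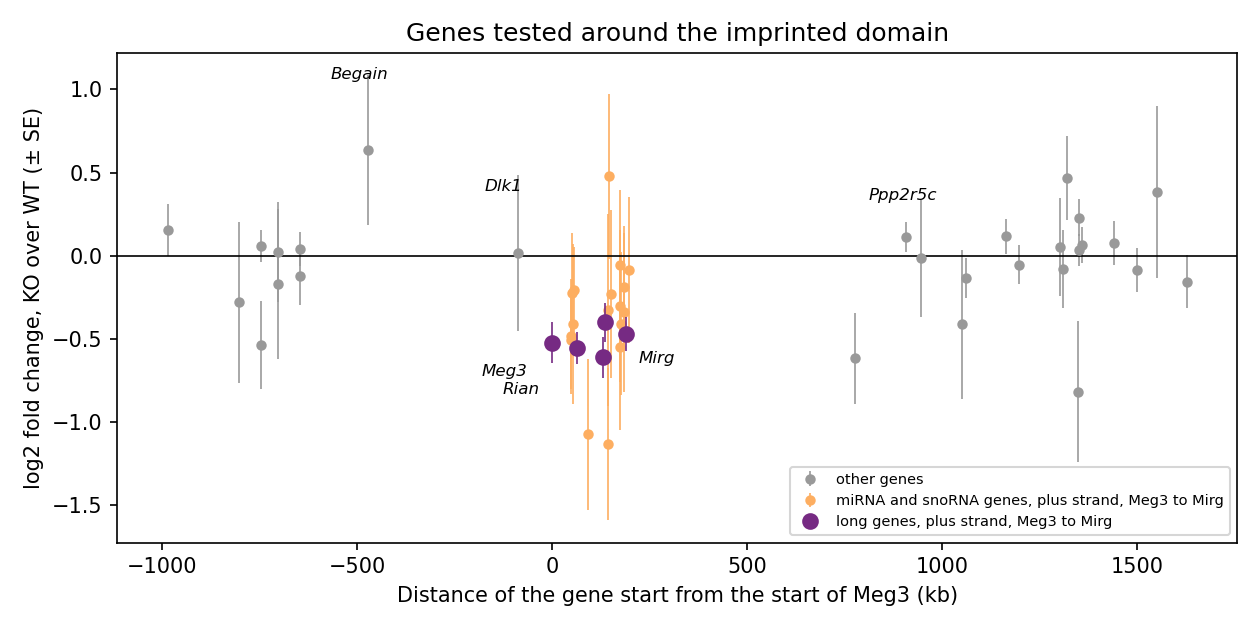
The log2 fold change of KO over WT EpiLCs, with its standard error, is plotted for the 50 genes tested around the domain against the distance in kb of each gene's start from that of Meg3. The 5 long plus-strand genes between Meg3 and Mirg (purple) lie between −0.61 and −0.40, the hairpin and snoRNA genes of the same stretch (orange) scatter widely, and the other genes (grey) lie on both sides of 0 with none called.

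Genes that moved most like the members across the 6 libraries were ranked by the Pearson correlation of log2 CPM. Since the 6 libraries fall into 2 groups, genes lower in KO EpiLCs tend to score high with Meg3, and the values are a description only. The 5 genes nearest to Meg3 were Mat1a (r = 0.998), Fkbp10 (r = 0.995), Limd1 (r = 0.993), Lmbr1l (r = 0.992) and Lnx2 (r = 0.992), each on a chromosome other than 12. Mat1a was barely detected, at 0.540 to 1.12 CPM over the 6 libraries. Mirg stood at rank 1269 of 15745 genes with r = 0.825 and Rian at rank 1984 with r = 0.758. Within the groups, Meg3 was lowest in replicate 2 of both WT and KO, whereas Mirg was lowest in replicate 3 of both. Nearest to Dlk1 were Bri3 (r = 0.989), Mzf1 (r = 0.987), Ss18l2 (r = 0.983), Gm13648 (r = 0.981) and Gm45206 (r = 0.980), from 66 counts of Dlk1 in all.

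Other imprinted genes moved in both directions. Of 18 maternally expressed genes tested from other domains, 8 were called (44.4%), 3 higher and 5 lower, with a median log2 fold change of −0.17. Of 23 paternally expressed genes tested, 13 were called (56.5%), 7 higher and 6 lower, with a median of 0.16. Over all genes tested the share called was 24.3%. Of the lower ones, 2 of the 5 maternally expressed and 4 of the 6 paternally expressed genes lie on chromosome 6, on whose first 100 Mb the median log2 fold change of all 477 genes tested was −0.52. Outside chromosomes 6 and 16, 6 of 15 maternally expressed genes were called, 3 in each direction, and 9 of 19 paternally expressed genes, 7 higher and 2 lower.

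Among the maternally expressed genes, Phlda2, a regulator of placental growth, fell by 1.33 on the log2 scale (edgeR, adjusted p = 3.2e-05). Cdkn1c, a cell cycle inhibitor, fell by 0.82 (edgeR, adjusted p = 6.9e-05), and Gnas, a G protein subunit, fell by 0.47 (edgeR, adjusted p = 0.0031). Copg2, a coat protein gene on chromosome 6, fell by 0.70 on that scale. Grb10, a growth factor receptor adaptor, rose by 0.45. H19, a long noncoding RNA, rose by 0.77 (edgeR, adjusted p = 0.0068), and that call was lost with DESeq2 (adjusted p = 0.12).

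Among the paternally expressed genes, Slc38a4, an amino acid transporter, had the smallest p and rose by 2.53 on the log2 scale, from 30.6 ± 4.93 to 178 ± 2.05 CPM (SD, n = 3). Gnasas1, antisense to Gnas, rose by 1.69, Peg3, a zinc finger gene, by 1.32, and its neighbour Usp29 by 1.07. Mest fell by 1.82 and Sgce, a sarcoglycan gene, fell by 1.03, both on chromosome 6. Compared with these, the maternal RNAs of the Dlk1-Meg3 domain had log2 fold changes from −0.55 to −0.47.

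Of 20 regulators of imprints, all were tested and 4 were called, a share of 20% against 24.3% of all genes tested. Ezh2, the methyltransferase of Polycomb repressive complex 2, fell by 0.55 on the log2 scale (edgeR, adjusted p = 0.00055), and it lies on the first part of chromosome 6. Tet1, which oxidises methylated cytosine, was higher by 0.42 (edgeR, adjusted p = 0.017). Dnmt1, the maintenance DNA methyltransferase, at 0.23 (edgeR, adjusted p = 0.095) and Eed, a Polycomb subunit, at 0.26 (edgeR, adjusted p = 0.099) stood close to the threshold, and their calls were lost in 8 and 9 of 14 alternatives. With the replicate number as a block in edgeR, 10 of the 20 were called, 8 higher and 2 lower. That fit called 4764 of all 15746 genes tested. Without WT replicate 1, KO replicate 1 or KO replicate 2, 2 of the 20 regulators were called, and without WT replicate 3 it was 7.

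The pathways in which the paternal proteins act were described from lists. Of 13 Notch pathway genes tested, 4 were called, a share of 30.8% against 24.3% of all genes tested. On the log2 scale the receptor Notch3 fell by 0.68, the target Hey1 fell by 1.76, the ligand Dll3 fell by 0.73 and the ligand Jag1 rose by 0.57. The fall of Hey1 rested on few counts, 25, 18 and 27 in the WT libraries against 8, 5 and 7 in the KO libraries. The call of Dll3 (edgeR, adjusted p = 0.067) was lost without WT replicate 2 or 3 (adjusted p = 0.16 and 0.15) or KO replicate 3 (adjusted p = 0.26). Of 7 genes tested of thyroid hormone action, the transporter Slc16a10 fell by 0.69, the receptor Thra fell by 0.52 and Eefsec, needed to make selenoproteins such as Dio3, fell by 0.43 on that scale. Eefsec lies on the first part of chromosome 6. The call of Thra was lost without WT replicate 3 (adjusted p = 0.14), KO replicate 1 or KO replicate 3 (adjusted p = 0.15 for each). Of 4 tested relatives of Rtl1, Rtl6 fell by 0.68 and Peg10 fell by 0.41, and Peg10 lies at the start of chromosome 6. The call of Rtl6 was lost without WT replicate 1 or KO replicate 3 (adjusted p = 0.17 and 0.13), and that of Peg10 without WT replicate 3, KO replicate 1 or KO replicate 2 (adjusted p = 0.14, 0.12 and 0.29). Neither was called with DESeq2 and the replicate number as a block.

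**Figure D4:**
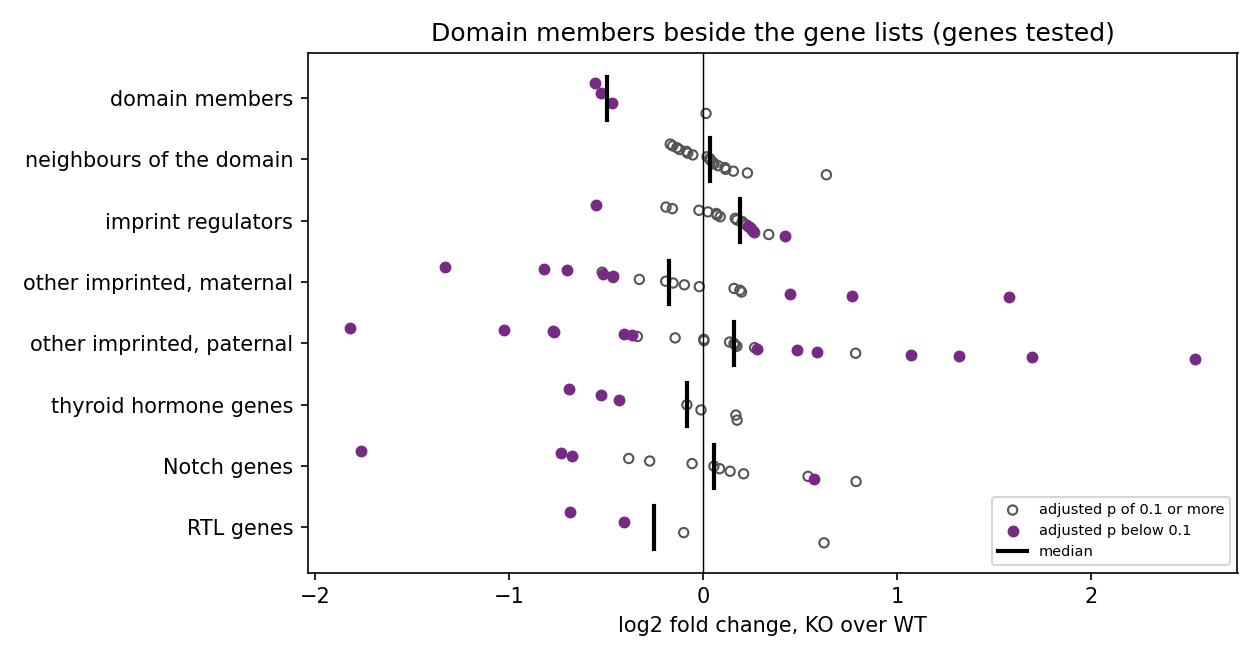
Each point is a tested gene of a list at its log2 fold change of KO over WT EpiLCs, filled when its adjusted p was below 0.1, and the black bars are list medians. The 3 called members lie close together near −0.5 with Dlk1 at 0.02, while the other imprinted genes spread from −1.82 to 2.53.

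The label of the cells was checked against marker lists. The 7 EpiLC markers summed to between 2726 and 3029 CPM in WT and between 2678 and 2816 CPM in KO EpiLCs. Dnmt3b and Pou5f1 made up most of this sum. Of the 7, 3 were called higher in KO EpiLCs and 0 lower, while 11.8% of all genes tested were called higher. These were Otx2, Fgf5 and Sox2, with log2 fold changes of 0.92, 0.65 and 0.42 (edgeR, adjusted p = 0.00017, 0.00038 and 0.028). The 7 naïve markers summed to between 209 and 222 CPM in WT and between 303 and 381 CPM in KO EpiLCs, and the 5 neural markers to between 41.0 and 45.5 and between 15.5 and 17.1 CPM. The 7 primitive endoderm markers summed to between 57.9 and 81.2 CPM in WT and between 83.5 and 134 CPM in KO EpiLCs. Col4a1 made up most of this sum, and Gata4 and Sox7 were below 1 CPM in every library. The 5 streak markers summed to between 6.16 and 6.49 and between 8.79 and 11.8 CPM, and the 5 trophoblast markers to between 5.55 and 6.87 and between 8.41 and 11.7 CPM. Those 2 lists share Eomes, and all their other genes were below 1 CPM in every library. The 7 fibroblast markers, of a cell type known to express maternal RNAs of this domain, summed to between 9.22 and 15.6 CPM in WT and between 5.40 and 9.88 CPM in KO EpiLCs, with Col1a1, Col3a1, Twist2 and Postn below 1 CPM in every library. The naïve, primitive endoderm, streak, trophoblast and neural sums did not overlap between the groups. Called higher were 3 of 7 naïve and 3 of 5 tested primitive endoderm markers, with 0 lower in either list. Eomes was called higher too. Of 2 neural markers tested 2 were called lower, and of 3 fibroblast markers tested 1 was called lower. Nes made up most of the neural sum, and Pax6, Zic1 and Neurog2 were below 1 CPM in every library. That neural sum was lower in KO EpiLCs, as the maternal RNAs were. The naïve, primitive endoderm, streak and trophoblast sums were higher. The part of any of these cell types in the lower levels of the maternal RNAs was not tested.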

How the data were processed

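Total RNA from 3 WT and 3 KO EpiLC cultures was sequenced with a stranded, rRNA-depleted, paired-end protocol. The authors deposited raw counts per gene, made by trimming with Fastp and aligning with STAR to GRCm39. The STAR version, annotation release, strand setting and treatment of reads with several hits are not given in the sources used here. Gene names, positions and exon lengths were taken from GENCODE M39, which matched 54749 of 55416 genes by ID. The members and gene lists were chosen with earlier results of these data known. Genes were tested with edgeR 4.0.16 (filterByExpr, TMM, quasi-likelihood test, adjusted p below 0.1) and as an alternative with DESeq2 1.42.0, after edgeR had been tested on simulated data. Named beside the members were, from each list, at most 6 called genes with the smallest p, the called and nearest genes around the domain, and the 5 genes most like Meg3 and Dlk1. Mature miRNA and promoter sequences came from RefSeq tables of GRCm38.p6 and were located on GRCm39 by exact match. The design states paired replicates. Deviations of same-numbered libraries correlated at 0.209, 0.252 and 0.101 over 15007 genes, against −0.195 to −0.0193 for different numbers. The main edgeR test and the permutation tests did not use the pairing. Fits with the replicate number as a block were run as alternatives. P-values measure the spread between these cultures. Intervals of fold changes come from the edgeR test and include this spread. Limits for counts of 0 cover counting error only.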

Additional observations from a re-analysis of the deposited data

How the results depend on the processing

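Meg3, Rian and Mirg stayed lower and called under all 15 alternatives run for each, with log2 fold changes from −0.61 to −0.41, −0.61 to −0.47 and −0.54 to −0.40 and highest adjusted p of 0.036, 0.0064 and 0.030. Dlk1, never called, changed sign to −0.0093 with library totals alone, −0.030 with edgeR and replicate block and −0.084 with DESeq2 and replicate block. It ran from −0.19 to 0.34 when single libraries were left out. The called imprint regulators numbered 2 with library totals alone, 2 without a filter on low counts, 10 with edgeR and replicate block, and 2 to 7 when single libraries were left out. The called relatives of Rtl1 numbered 0 with DESeq2 and replicate block and 1 to 2 when single libraries were left out. The paired fit of edgeR with replicate block changed no other call of a named gene, except that Gm6988 was called. Calls over all genes numbered 3833, and 4764 with edgeR and replicate block. For the 31 other named genes, 383 of 431 alternative values kept direction and call, 44 lost the call, 4 gained it and 0 changed direction. With 33 counts of Dlk1 per group and fewer of Rtl1 and Dio3, depth limits what can be said of the paternal genes. Leaving out single libraries moved the maternal to paternal ratio from −0.92 to −0.15.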
